A study of Mus musculus with 12 samples.

Results

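Genes that restrain T follicular helper (Tfh) cells through RNA decay or ubiquitin were examined in CD4+ T cells of mouse Peyer's patches, which are lymphoid follicles in the gut wall. The 10 genes are Rc3h1 and Rc3h2 (Roquin-1 and Roquin-2), Zc3h12a (Regnase-1), Cblb, Cbl, Itch, its activator Ndfip1, Peli1, Cul3 and Rnf128 (Grail). They were taken by symbol or alias from the probe sets annotated to 1 gene alone. All 10 of 10 were on the array, with 11 probe sets, since Rc3h1 has more than 1; the probe set with the highest mean over all arrays stands for the gene. All 10 passed a filter on low values, among 19937 genes on the array of which 11240 were tested.

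Expression was read from 12 Affymetrix arrays of sorted cells, in 4 groups with 3 arrays each. All mice carried the IL-21eGFP bacterial artificial chromosome transgene, in which a green fluorescent protein (eGFP, here GFP) stands in for the cytokine IL-21, so GFP marks transgene activity and not the IL-21 protein itself. Cells came from a gate negative for MHC class II and Epcam and positive for CD4; the groups were GFP+ CXCR5+PD1+ (GFP+ Tfh), GFP- CXCR5+PD1+ (GFP- Tfh), GFP- CXCR5+PD1- and GFP- CXCR5-PD1- cells. The stated aim was to compare GFP+ with GFP- Tfh. Groups follow the sample titles: the sorting protocol names all of them but the CXCR5+PD1- gate, and the marker fields of the GFP+ arrays give CXCR5 and PD1 as negative where title and protocol give them as positive. The labels state no age, sex, strain or treatment, and no agent was given per the labels. Nor do they say that replicates are separate animals, and p-values here measure only the spread between samples, which may be technical.

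Roquin proteins bind stem-loops in messenger RNAs such as those of the costimulatory receptors Icos and Ox40 and recruit the decay machinery, and Regnase-1 cleaves an overlapping group of transcripts. Mice with a mutated Rc3h1 accumulate Tfh cells and germinal centres and develop a lupus-like disease. The other genes act through ubiquitin: Cbl-b, Cbl, Peli1 and Grail dampen signals of the T cell receptor and costimulation, Itch and its activator Ndfip1 limit type 2 helper responses, and Cul3 is a scaffold of ligases that act with zinc finger proteins such as Bcl6. Not all are brakes in every setting, since Itch is also known to be needed for Tfh differentiation.

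Of the 10 genes, 3 differed between the Tfh gates and the PD1- gates. Ndfip1 was 1.36-fold higher in Tfh and Peli1 1.36-fold lower. Rnf128 was also higher (0.40 ± 0.099 on the log2 scale), but near background: it lay below the array median on all 6 PD1- arrays. It therefore passed the filter, and entered the count below, through Tfh arrays alone. Neither Roquin gene, nor Regnase-1, Cbl-b, Cbl, Itch or Cul3 passed the test. The count is 3 of 10 (2 higher, 1 lower) at an adjusted p under 0.05, where 10.4% of all 11240 genes tested passed, 5.05% higher and 5.33% lower; at an unadjusted p under 0.05 the counts were 4 of the 10 genes (Rc3h1 being the other) and 21.5% of all genes. The median difference of the 10 genes was -0.040 on the log2 scale, beside -0.016 over all genes tested. Each difference is the mean of both Tfh groups minus the mean of both PD1- groups, given ± SE, from limma with Benjamini-Hochberg adjustment over all genes tested.

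**Figure D1:**
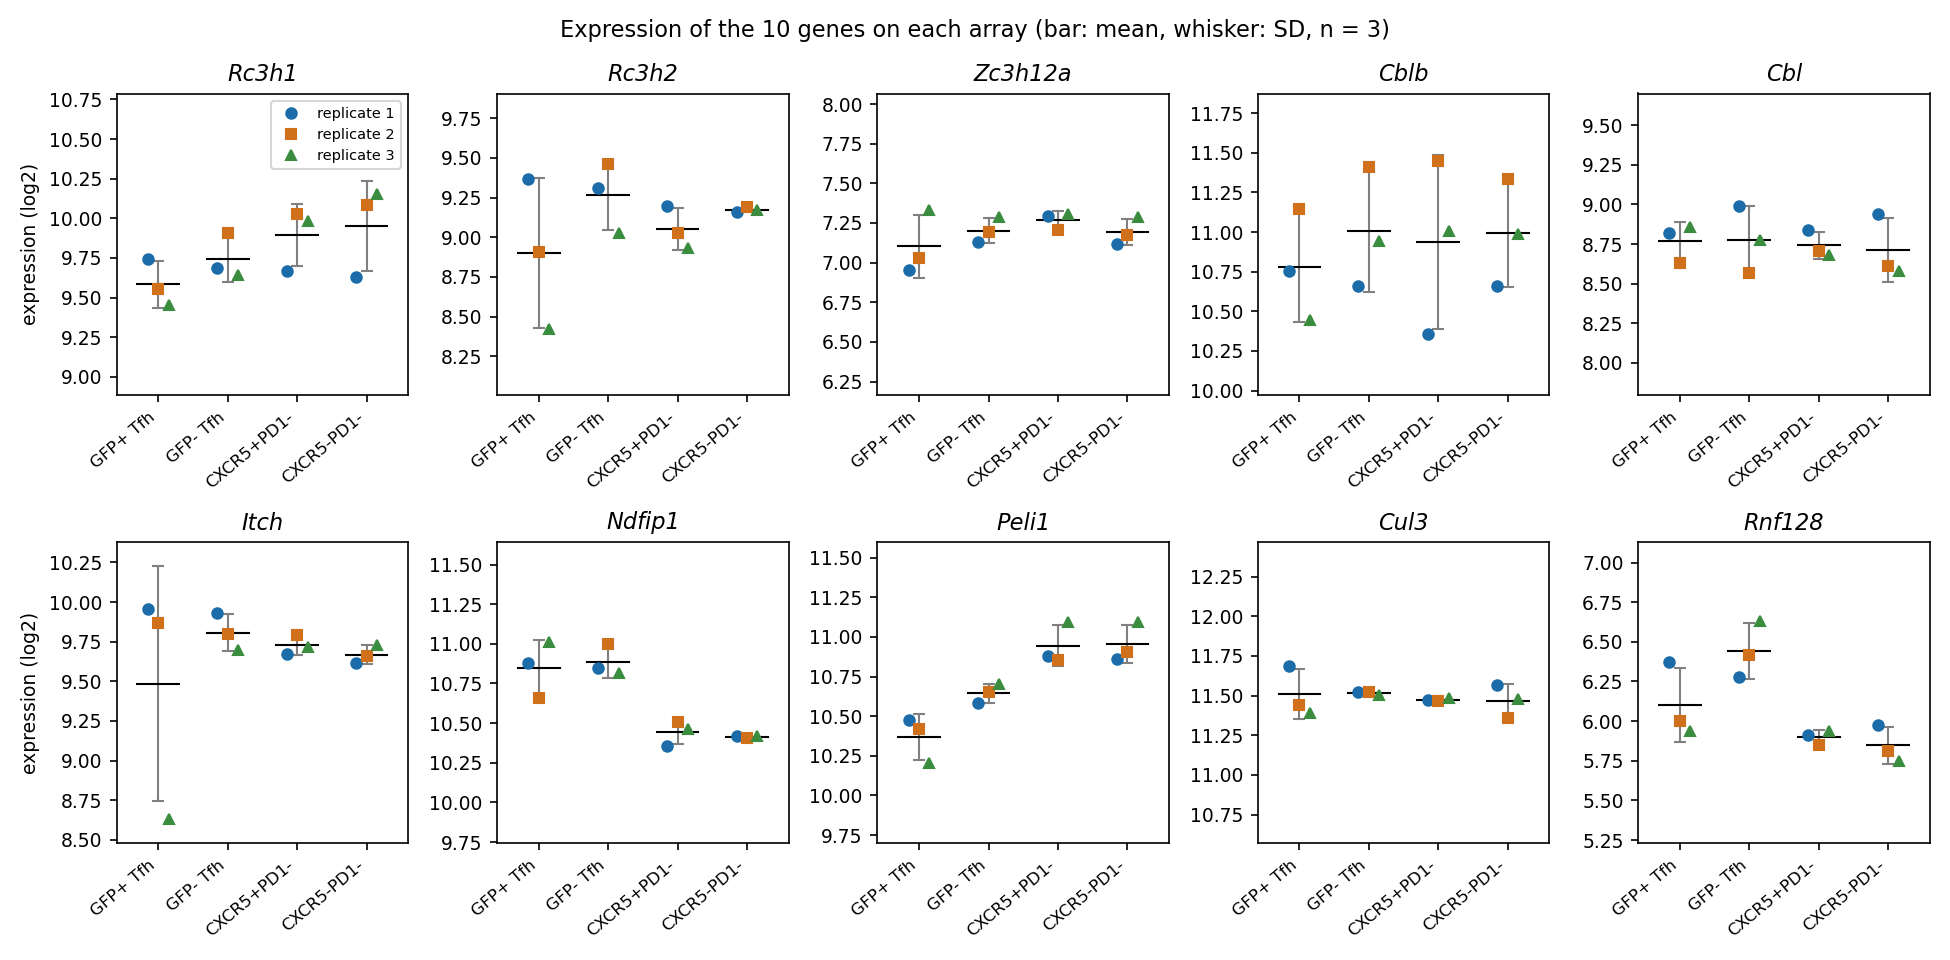
Expression (log2, vertical axes, all spanning the same number of units) of the 10 genes on each of the 12 arrays by sorted group, with points for replicates 1 to 3, bars for means and whiskers for SD (n = 3). Ndfip1 and Peli1 separate the Tfh arrays from the PD1- arrays with no overlap. Rnf128 has its highest group mean in GFP- Tfh, and Cblb is highest on replicate 2 in every group.

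The sort and the samples were checked once for all genes. All 7 of 7 Tfh markers (Cxcr5, Pdcd1, Bcl6, Il21, Icos, Sh2d1a and Il4) were higher in both Tfh gates, and the markers of CD4 T cells lay 4.41 to 5.06 above the array median on average. Cxcr5 transcript was no higher in the CXCR5+PD1- gate, at 5.61 ± 0.37, than in the CXCR5-PD1- gate, at 5.71 ± 0.43. Both means lie below the median of every array (6.34 to 6.45), near background. The array thus does not separate these gates by the marker used to sort them. The mean of the listed markers on the array lay below the array median on all arrays for B cells, epithelium and CD8 or NK cells, and at -0.46 to 0.19 in GFP+ Tfh and below it elsewhere for myeloid cells. Single markers did lie above it, Krt8 and Cst3 on 12 of 12 arrays, Cd8a on 9, Cd79b on 8 and Cd8b1 on 7. Of 5 markers listed for each, the filter passed 2 for B cells (Cd79b and Pax5), 2 for myeloid cells (Lyz2 and Cst3), 1 for epithelium (Krt8) and 2 for CD8 or NK cells (Cd8a and Cd8b1). Pax5 was higher in both Tfh gates (0.30 ± 0.070, adjusted p = 0.0193, limma) and Cd8b1 lower (-0.46 ± 0.13, adjusted p = 0.0478). Xist stood at 10.65 to 11.25 on replicate 3 of every group and at 4.87 to 5.49 on replicates 1 and 2, so replicate 3 came from female and the others from male tissue in each group. GFP+ Tfh arrays scattered most, with a root mean square deviation from the group mean of 0.29 to 0.41 over genes, beside 0.16 to 0.20 on the other arrays. In sorted bulk samples, fewer cells with a transcript and less RNA per cell cannot be told apart.

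Roquin-1, the RNA-binding ubiquitin ligase mutated in the sanroque mouse, had the highest values in the PD1- gates. Rc3h1 expression was 9.74, 9.55 and 9.45 in GFP+ Tfh, 9.68, 9.91 and 9.64 in GFP- Tfh, 9.67, 10.03 and 9.98 in CXCR5+PD1- cells and 9.63, 10.08 and 10.15 in CXCR5-PD1- cells. All neighbouring groups overlap: replicate 1 of both PD1- gates lies among the Tfh arrays. The difference of the Tfh gates was -0.26 ± 0.12 (95% interval -0.51 to -0.0074), which did not pass the test (adjusted p = 0.216, unadjusted p = 0.0446, limma). A second Rc3h1 probe set gave means of 9.50 ± 0.28, 9.30 ± 0.061, 9.52 ± 0.14 and 9.46 ± 0.11 (SD, n = 3) in the same group order and a difference of -0.094. The probe sets of this gene did not vary together (Pearson r = -0.001 over the 12 arrays), and the mean of them differed by -0.18 (adjusted p = 0.276, limma).

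Roquin-2, the paralog that shares its targets, spread more widely within GFP+ Tfh than its group means did. Rc3h2 expression was 9.37, 8.91 and 8.42 in GFP+ Tfh, 9.31, 9.46 and 9.03 in GFP- Tfh, 9.20, 9.03 and 8.93 in CXCR5+PD1- cells and 9.16, 9.19 and 9.17 in CXCR5-PD1- cells. Replicate 3 of GFP+ Tfh is the lowest of all 12 arrays and replicate 2 of GFP- Tfh the highest, and all neighbouring groups overlap. The Tfh gates differed from the PD1- gates by -0.030 ± 0.14 (-0.34 to 0.29; adjusted p = 0.951, limma), and without that lowest array the difference was 0.089, of the opposite sign (adjusted p = 0.690, limma).

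Regnase-1, the endonuclease that the protease Malt1 cleaves after T cell receptor signalling, had no group apart from the others. Zc3h12a expression was 6.95, 7.03 and 7.33 in GFP+ Tfh, 7.13, 7.19 and 7.29 in GFP- Tfh, 7.29, 7.20 and 7.31 in CXCR5+PD1- cells and 7.12, 7.17 and 7.28 in CXCR5-PD1- cells. All groups overlap, and both the lowest and the highest array belong to GFP+ Tfh. The difference was -0.078 ± 0.085 (-0.26 to 0.11; adjusted p = 0.710, limma).

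Cbl-b, the ligase that sets the need for costimulation through CD28, varied between replicates far more than between sorts. Cblb expression was 10.76, 11.14 and 10.45 in GFP+ Tfh, 10.66, 11.41 and 10.94 in GFP- Tfh, 10.36, 11.45 and 11.01 in CXCR5+PD1- cells and 10.66, 11.34 and 10.99 in CXCR5-PD1- cells. Replicate 2 is the highest array in 4 of 4 groups and replicate 1 the lowest in 3 of them; within CXCR5+PD1- cells the arrays span 1.09, while the 4 group means span 0.22. The Tfh gates differed by -0.074 ± 0.21 (-0.53 to 0.38; adjusted p = 0.907, limma). This interval, from a fit with no term for replicate, is the widest of the 10 genes.

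Cbl, the related ligase that with Cbl-b acts on T cell receptor components and Icos, had a narrow range. Its values were 8.82, 8.63 and 8.86 in GFP+ Tfh, 8.99, 8.57 and 8.77 in GFP- Tfh, 8.84, 8.70 and 8.68 in CXCR5+PD1- cells and 8.94, 8.61 and 8.58 in CXCR5-PD1- cells. All groups overlap, and replicate 2 or 3 is the lowest array in every group. The difference of the Tfh gates was 0.047 ± 0.10 (-0.17 to 0.27; adjusted p = 0.873, limma). Over the 12 arrays Cbl was low where Cblb was high (Pearson r = -0.78, n = 12), a description of arrays that share replicate numbers, sex and normalisation across the sorts.

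**Figure D2:**
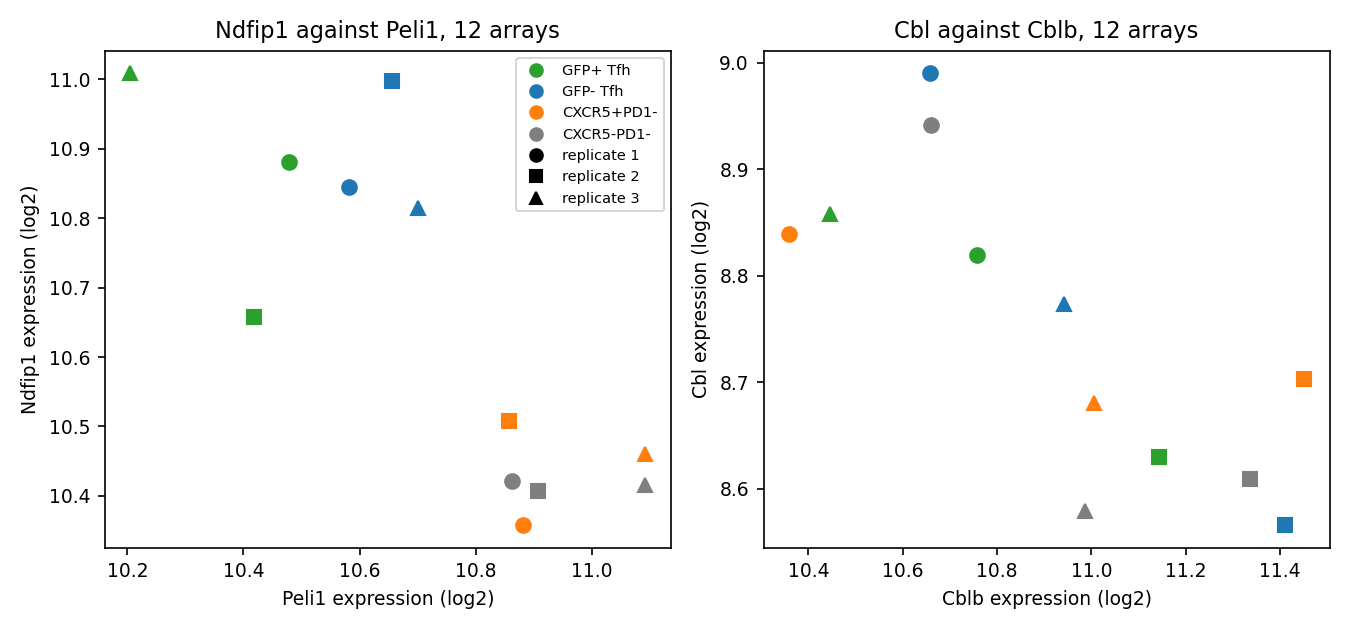
Expression (log2) of Ndfip1 against Peli1 on the left and of Cbl against Cblb on the right, 1 point per array, coloured by sorted group and shaped by replicate number. On the left the 6 Tfh arrays lie apart from the 6 PD1- arrays on both axes; on the right arrays spread along Cblb by replicate, with every replicate 2 at 11.14 or above.

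Itch, the HECT-type ligase that degrades JunB, was even across the sorts but for 1 array. Itch expression was 9.96, 9.87 and 8.63 in GFP+ Tfh, 9.93, 9.80 and 9.70 in GFP- Tfh, 9.67, 9.79 and 9.72 in CXCR5+PD1- cells and 9.62, 9.66 and 9.73 in CXCR5-PD1- cells. Replicate 3 of GFP+ Tfh lies at 8.63, and the other 11 arrays lie between 9.62 and 9.96. The difference was -0.051 ± 0.19 (-0.47 to 0.37; adjusted p = 0.933, limma); without that array it was 0.16 and did not pass either (adjusted p = 0.216). The same array is the lowest of the 12 for 4 of the 10 genes (Rc3h1, Rc3h2, Itch and Peli1) and the highest for 2 (Zc3h12a and Ndfip1).

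Ndfip1, the membrane adaptor that recruits and activates Itch and other NEDD4-type ligases, was higher in both Tfh gates. Its expression was 10.88, 10.66 and 11.01 in GFP+ Tfh, 10.84, 11.00 and 10.81 in GFP- Tfh, 10.36, 10.51 and 10.46 in CXCR5+PD1- cells and 10.42, 10.41 and 10.42 in CXCR5-PD1- cells. Every Tfh array lies above every PD1- array; the Tfh gates overlap with each other, as do the PD1- gates. Group means were 10.85 ± 0.18 (SD, n = 3) for GFP+ Tfh and 10.89 ± 0.098 for GFP- Tfh, against 10.44 ± 0.076 for the CXCR5+PD1- gate and 10.41 ± 0.0072 for the CXCR5-PD1- gate. The difference was 0.44 ± 0.082 (0.26 to 0.62), a 1.36-fold higher level (adjusted p = 0.00458, limma). Over all genes tested, 7.56% had no overlap between the 6 Tfh and the 6 PD1- arrays, 3.49% with Tfh higher and 4.07% with Tfh lower. Itch itself did not pass, and whether the ligase and its activator differ in response was not tested.

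Peli1, the ligase that in T cells marks the NF-kB subunit c-Rel for degradation, was lower in both Tfh gates. Its expression was 10.48, 10.42 and 10.21 in GFP+ Tfh, 10.58, 10.66 and 10.70 in GFP- Tfh, 10.88, 10.86 and 11.09 in CXCR5+PD1- cells and 10.86, 10.91 and 11.09 in CXCR5-PD1- cells. The groups step down from the PD1- gates, which overlap, through GFP- Tfh to GFP+ Tfh, with no overlap at either step. GFP- Tfh did not pass against CXCR5-PD1- cells (adjusted p = 0.253, limma), nor did GFP+ against GFP- Tfh (adjusted p = 0.653). Of all genes, 21.6% had no overlap between GFP- Tfh and CXCR5-PD1- arrays, in either direction. Between GFP+ and GFP- Tfh 5.65% had none with GFP+ Tfh lower. Group means were 10.37 ± 0.14 (SD, n = 3) for GFP+ Tfh and 10.65 ± 0.060 for GFP- Tfh, against 10.94 ± 0.13 for the CXCR5+PD1- gate and 10.95 ± 0.12 for the CXCR5-PD1- gate. The difference was -0.44 ± 0.085 (-0.63 to -0.26), a 1.36-fold lower level in Tfh (adjusted p = 0.00535, limma). The mean of the CD8 and NK markers relative to the array median was -0.71 to -0.61 in CXCR5-PD1- and -0.93 to -0.82 in CXCR5+PD1-. It was -1.18 to -1.08 in GFP- Tfh and -1.08 to -0.89 in GFP+ Tfh, which overlaps with CXCR5+PD1-. Of these 5 genes 2 passed the filter, and their part in the Peli1 result was not tested. With male arrays alone neither Ndfip1 (0.42, adjusted p = 0.0508) nor Peli1 (-0.34, adjusted p = 0.0639) passed; on replicate 3 alone, which is female, the differences were 0.47 and -0.64.

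Cul3, the scaffold of ligases whose loss in T cell precursors expands Tfh-like cells, did not pass the test. Its expression was 11.69, 11.44 and 11.39 in GFP+ Tfh, 11.52, 11.52 and 11.50 in GFP- Tfh, 11.47, 11.46 and 11.49 in CXCR5+PD1- cells and 11.56, 11.36 and 11.48 in CXCR5-PD1- cells. The groups overlap throughout, with replicate 1 of GFP+ Tfh highest. The difference was 0.042 ± 0.078, and its interval (-0.13 to 0.21) was the narrowest of the 10 genes (adjusted p = 0.853, limma).

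Rnf128, the anergy-associated ligase Grail, was higher in Tfh and highest in GFP- Tfh. Its expression was 6.37, 6.0 and 5.93 in GFP+ Tfh, 6.28, 6.41 and 6.63 in GFP- Tfh, 5.91, 5.85 and 5.94 in CXCR5+PD1- cells and 5.98, 5.81 and 5.75 in CXCR5-PD1- cells. All GFP- Tfh arrays lie above all PD1- arrays, while replicate 3 of GFP+ Tfh falls among the PD1- arrays. Its group means were 6.10 ± 0.23 (SD, n = 3) for GFP+ Tfh and 6.44 ± 0.18 for GFP- Tfh, against 5.90 ± 0.044 for the CXCR5+PD1- gate and 5.85 ± 0.12 for the CXCR5-PD1- gate. The difference was 0.40 ± 0.099 (0.18 to 0.61), with an adjusted p of 0.0239 (limma). Over CXCR5-PD1- cells GFP- Tfh passed (adjusted p = 0.0370, limma) and GFP+ Tfh did not (0.26 ± 0.14, adjusted p = 0.370). GFP+ did not pass against GFP- Tfh (-0.34 ± 0.14, adjusted p = 0.618, limma). Between GFP- Tfh and CXCR5-PD1- arrays 21.6% of all genes had no overlap, in either direction. Rnf128 is near background: it lay above the array median on 3 of 12 arrays, all of them Tfh arrays, and so passed the filter through the group where it is high. With no filter it also passed (adjusted p = 0.0275, limma). It did not pass with male arrays alone (adjusted p = 0.101) or without any 1 of replicates 1, 2 or 3 of CXCR5+PD1-, 2 or 3 of GFP- Tfh, or 2 or 3 of CXCR5-PD1- (adjusted p 0.0502 to 0.0649, differences 0.35 to 0.41). Of 5 regulatory T cell markers, all tested, Il10 and Itgae had their highest group mean in GFP- Tfh, Ikzf2 in GFP+ Tfh, and Foxp3 and Il2ra in CXCR5-PD1- cells. The mean of the 5 lay 1.95 to 2.18 above the array median in GFP- Tfh and 0.76 to 1.23 above it in GFP+ Tfh. In CXCR5+PD1- cells it lay 1.06 to 1.56 above the median, and in CXCR5-PD1- cells 1.26 to 1.81. The part of these markers in the Rnf128 result was not tested.

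Promoter sequence from RefSeq (build GRCm38.p6) was matched by symbol for 8 of the 10 genes; Itch and Ndfip1 had no entry. The 200 bases upstream of the listed start are shown for Peli1 and Rnf128, which differed in opposite directions, and for Rc3h1, whose protein gives the group its name. Capitals mark matches on either strand to the NFAT core GGAAA, the STAT site TTCNNNGAA, the NF-kB site GGGANNNNCC or the GC box GGGCGG.
Peli1: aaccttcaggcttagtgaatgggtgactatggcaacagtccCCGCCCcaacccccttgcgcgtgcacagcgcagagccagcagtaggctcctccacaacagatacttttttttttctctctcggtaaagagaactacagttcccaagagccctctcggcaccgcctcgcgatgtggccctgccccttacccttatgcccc
Rnf128: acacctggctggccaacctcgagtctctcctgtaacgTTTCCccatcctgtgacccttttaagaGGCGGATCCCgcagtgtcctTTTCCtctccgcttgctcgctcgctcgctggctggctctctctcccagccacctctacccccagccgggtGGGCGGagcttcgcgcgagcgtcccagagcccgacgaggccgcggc
Rc3h1: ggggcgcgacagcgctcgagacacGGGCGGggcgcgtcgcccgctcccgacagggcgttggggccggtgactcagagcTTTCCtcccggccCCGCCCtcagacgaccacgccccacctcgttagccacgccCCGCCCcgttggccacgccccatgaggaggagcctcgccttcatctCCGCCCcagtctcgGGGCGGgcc
The windows are chr11:21091083-21091282 for Peli1, ending 41 bases before its listed start, chrX:139610420-139610619 for Rnf128 and chr1:160906211-160906410 for Rc3h1, all on the plus strand. The listed start of Rnf128 lies inside the annotated span of the gene, so its window is upstream of that start and not of the whole gene. The Peli1 window holds 1 GC box and no match to the other motifs. The Rnf128 window holds 2 NFAT cores, 1 NF-kB site and 1 GC box, and the Rc3h1 window 1 NFAT core and 5 GC boxes. Of 32851 mouse promoter windows of the same length 47.6% hold an NFAT core, 5.49% a STAT site, 14.9% an NF-kB site and 31.0% a GC box. A match is a string of letters and no measured binding site.

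Between GFP+ and GFP- Tfh, the comparison the study was made for, none of the 10 genes passed the test. Of the 7 Tfh markers 0 passed here, and Il21, the gene the reporter stands for, is among them. Of all genes 0.0445% passed, 5 of 11240, all lower in GFP+ Tfh. Of the 5 regulatory T cell markers 1 was among them, and the median difference of these markers was -1.09. At an unadjusted p under 0.05 the counts were 2 of the 10 genes and 828 of all genes (7.37%). Those 2 were Rnf128, with a difference of -0.34 ± 0.14 (unadjusted p = 0.0335, adjusted p = 0.618, limma), and Peli1, with -0.28 ± 0.12 (unadjusted p = 0.0393, adjusted p = 0.653). The Peli1 arrays of the gates do not overlap, at 10.48, 10.42 and 10.21 in GFP+ and 10.58, 10.66 and 10.70 in GFP- Tfh; 5.65% of all genes had no overlap here with GFP+ Tfh lower. The Rnf128 arrays overlap through replicate 1 of GFP+ Tfh.

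The 10 differences of GFP+ from GFP- Tfh had a median of -0.19 beside -0.018 over all genes tested. They were read from the same arrays and are not independent of each other. The RNA-decay genes stood at -0.16 ± 0.16 for Rc3h1, -0.37 ± 0.20 for Rc3h2 and -0.099 ± 0.12 for Zc3h12a. Of the ligases, Itch stood at -0.32 ± 0.27, Cblb at -0.22 ± 0.29, Cbl at -0.0072 ± 0.14 and Cul3 at -0.0083 ± 0.11, and the adaptor Ndfip1 at -0.036 ± 0.12. The sign of 5 of them turned under an alternative: Itch to 0.11 without replicate 3 of GFP+ Tfh, Rc3h1 to 0.019 with the mean of its probe sets, and Cbl, Cul3 and Ndfip1 to 0.057, 0.063 and 0.035 after cyclic loess. Without replicate 1 of GFP+ Tfh, 237 of all genes passed but still 0 of the 10; Rnf128 then differed by -0.47 (adjusted p = 0.0893, limma) and Rc3h2 by -0.60 (adjusted p = 0.101, limma).

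**Figure D3:**
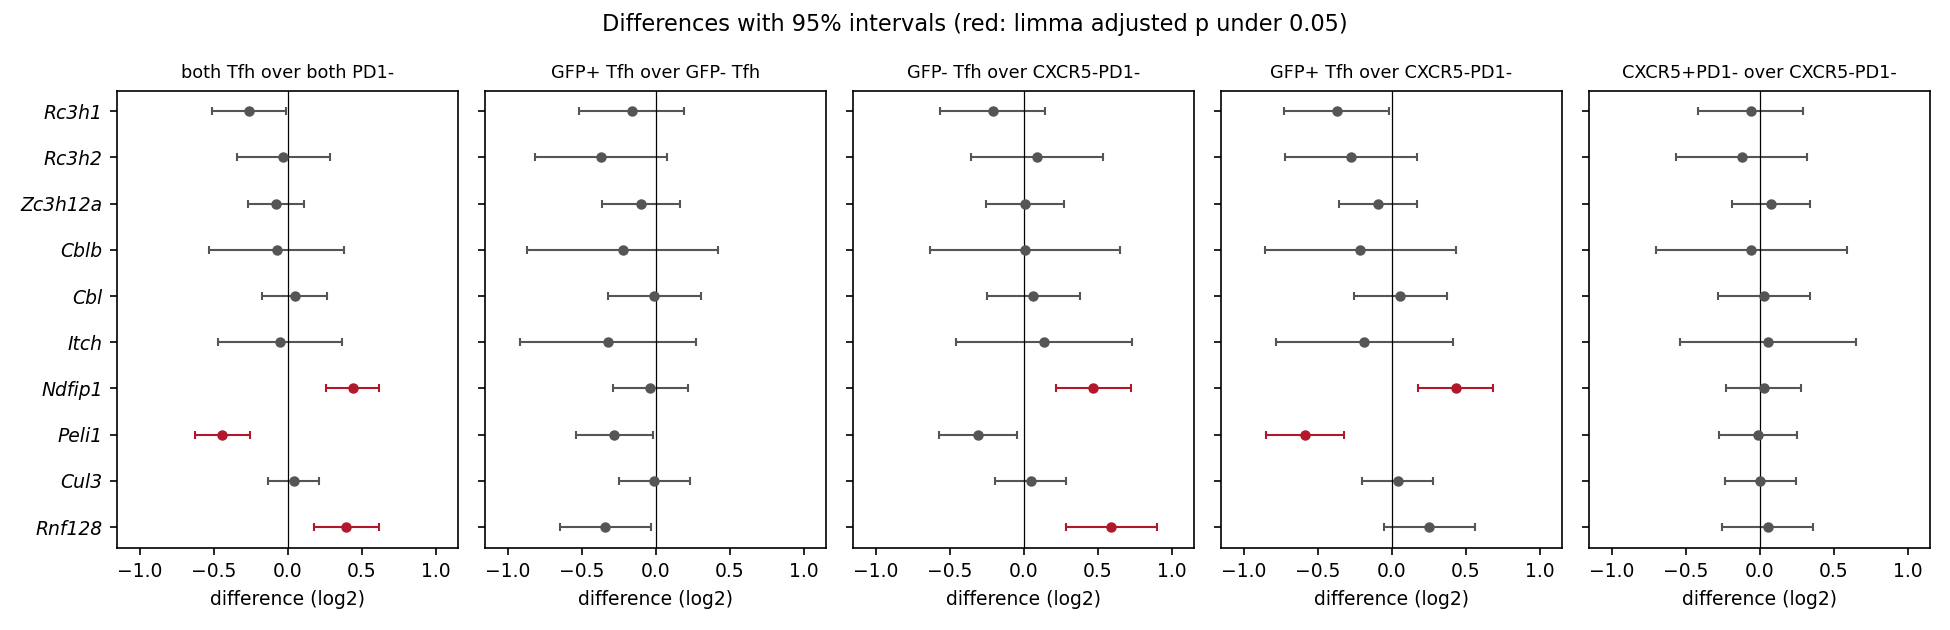
Differences (log2, horizontal axes) of the 10 genes in 5 comparisons of sorted groups, as points with 95% intervals from limma, red where the adjusted p is under 0.05. Ndfip1, Peli1 and Rnf128 are red in the comparison of both Tfh with both PD1- gates, and none is red between GFP+ and GFP- Tfh or between the PD1- gates.

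Against CXCR5-PD1- cells alone, the Tfh gates were taken one at a time; both comparisons use the same 3 control arrays. In GFP- Tfh 2 of the 10 genes were higher, where 3.82% of all genes passed (2.22% higher). Ndfip1 was 1.39-fold higher (0.47 ± 0.12, adjusted p = 0.0452, limma), and Rnf128 was higher (0.59 ± 0.14, adjusted p = 0.0370) against CXCR5-PD1- arrays on which it lay below the array median. The arrays do not overlap for either gene. Rnf128 entered this count through Tfh arrays alone, since it lay above the array median on no PD1- array. Peli1 stood at -0.31 ± 0.12 and did not pass (adjusted p = 0.253), although its arrays do not overlap, as for 21.6% of all genes. Leaving out any 1 of the 6 arrays ended both calls, with adjusted p of 0.0518 to 0.152 for Rnf128 and 0.0770 to 0.183 for Ndfip1. Ndfip1 did not pass with sex as a block (adjusted p = 0.0536) or centred arrays (0.0501), nor Rnf128 after cyclic loess (0.0725), and neither passed with male arrays alone (adjusted p = 0.160 and 0.278, limma).

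In GFP+ Tfh 1 gene was higher and 1 lower, where 6.2% of all genes passed (2.45% higher and 3.75% lower). Peli1 was 1.50-fold lower (-0.59 ± 0.12, adjusted p = 0.0133, limma) and Ndfip1 1.35-fold higher (0.44 ± 0.12, adjusted p = 0.0480). Rnf128 stood at 0.26 ± 0.14 (adjusted p = 0.370) and Rc3h1 at -0.37 ± 0.16 (adjusted p = 0.246); neither passed. With a separate weight for each group, which gives the scattered GFP+ arrays a weight of 0.39 beside 1.20 to 1.64 for the others, neither Peli1 (adjusted p = 0.0719) nor Ndfip1 (adjusted p = 0.146) passed. Peli1 also fell short without replicate 3 of CXCR5-PD1- (adjusted p = 0.0701), and Ndfip1 without any 1 of the 6 arrays but replicate 2 of GFP+ Tfh (adjusted p 0.0603 to 0.132). Neither passed with male arrays alone (adjusted p = 0.133 and 0.293) or with just these groups fitted (0.117 and 0.242), and Ndfip1 did not with sex as a block (0.0567) or centred arrays (0.0505, limma).

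Between the PD1- gates, none of the 10 genes passed the test. These gates were sorted by CXCR5 protein, and their Cxcr5 transcript, near background in both, did not differ beyond its spread. Differences ran from -0.12 ± 0.20 for Rc3h2 to 0.075 ± 0.12 for Zc3h12a, 0 of the 10 genes passed at an adjusted or an unadjusted p under 0.05, and of all genes 0% passed (137, or 1.22%, at an unadjusted p under 0.05, limma). The widest interval was that of Cblb (-0.70 to 0.59) and the narrowest that of Cul3 (-0.23 to 0.25). Both come from the fit of all groups with no term for replicate, in which changes within them were not detectable. With replicate as a block the SE of the Cblb difference was 0.17 instead of 0.29, and that of Cul3 stayed at 0.11. With just these gates fitted the SE were 0.28 and 0.096. None of the 10 genes passed in either alternative. The width for Cblb thus depends on the model and not only on having 3 arrays a group.

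Other genes of these pathways were read from 5 lists in the comparison of both Tfh with both PD1- gates, beside the 10.4% of all genes that passed. Of the partners of Roquin and Regnase, 1 of 16 tested was higher and 2 were lower (18.8%, median -0.068). Malt1, the protease that cleaves Roquin and Regnase-1, was higher (0.99 ± 0.079, adjusted p = 1.1e-05, limma). Stk38, a kinase of the Hippo family, was lower (-1.54 ± 0.14, adjusted p = 2.71e-05), as was Nufip2, a Roquin cofactor (-0.32 ± 0.090, adjusted p = 0.0465). The Nufip2 call ended without any 1 array other than replicate 3 of GFP+ Tfh (adjusted p up to 0.113), and with no filter, after cyclic loess, with centred arrays, with sex as a block or with male arrays alone (adjusted p = 0.0502, 0.0926, 0.0581, 0.0523 and 0.0712, limma). Arid5a, which protects transcripts from Regnase-1, stood at -0.51 ± 0.17 (adjusted p = 0.0830) and passed without replicate 3 of GFP+ Tfh (-0.65, adjusted p = 0.00901), with sex as a block (adjusted p = 0.0147) and with male arrays alone (0.0404).

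Of the transcripts that Roquin or Regnase are known to hold down, 4 of 10 tested were higher and 0 lower (40%, median 0.25). They were the costimulatory receptor gene Icos (1.28 ± 0.10, adjusted p = 1.11e-05, limma), the inhibitory receptor gene Ctla4 (1.05 ± 0.11, adjusted p = 9.04e-05), Tnfrsf4, which encodes Ox40 (0.64 ± 0.14, adjusted p = 0.0130), and Rel, which encodes c-Rel (0.47 ± 0.086, adjusted p = 0.00445). Icos and Ctla4 are themselves abundant in Tfh cells, and Icos is among the Tfh markers used for the check of the sort. The Rel transcript was thus higher where that of Peli1, the ligase of its protein, was lower; the arrays measure neither protein.

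Of the other NEDD4-type ligases, adaptors and T cell ligases or deubiquitinases, 0 of 17 tested were higher and 1 was lower (5.88%, median -0.042). Nedd4l, a relative of Itch that Ndfip1 also binds, was lower (-0.70 ± 0.16, adjusted p = 0.0125, limma), near background: it lay above the array median on 4 of 12 arrays, all of them PD1- arrays, and so passed the filter through the gates where it is high. With no filter its adjusted p was 0.0175 (limma). Ndfip2, the paralog of Ndfip1, stood at -0.33 ± 0.12 (adjusted p = 0.118), with the opposite sign to Ndfip1, and, of the alternatives run, passed only without replicate 1 of GFP+ Tfh (adjusted p = 0.0480). The ligase genes Wwp1 (-0.53 ± 0.23) and Wwp2 (0.25 ± 0.092) did not pass (adjusted p = 0.206 and 0.123).

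Of the Cul3 partners, 1 of 12 tested was higher and 2 were lower (25%, median 0.022). Bcl6, the Tfh transcription factor that binds Cul3, was higher (1.59 ± 0.11, adjusted p = 3.82e-06, limma); it is also a marker of the sorted cells. The Cul3 adaptor genes Klhl6 (-1.32 ± 0.14, adjusted p = 9.01e-05) and Kctd10 (-0.46 ± 0.088, adjusted p = 0.00519) were lower, while Cul3 itself did not pass. Kctd10 did not pass with male arrays alone (adjusted p = 0.0537). Zbtb16, which encodes the Cul3 partner Plzf, stood at 0.30 ± 0.10 (adjusted p = 0.0997) and passed without replicate 2 of CXCR5-PD1- (adjusted p = 0.0398).

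Of the substrates and signalling partners of the ligases, 3 of 16 tested were higher and 1 was lower (25%, median 0.083). Higher were Cd83, a target of Grail (1.38 ± 0.12, adjusted p = 2.3e-05, limma), the kinase gene Zap70 (0.65 ± 0.11, adjusted p = 0.00254) and the phospholipase gene Plcg1 (0.44 ± 0.13, adjusted p = 0.0499). Pik3cd, a catalytic subunit of phosphoinositide 3-kinase, was lower (-0.46 ± 0.11, adjusted p = 0.0240). Plcg1 did not pass without any 1 array other than replicate 2 of GFP+ Tfh (adjusted p up to 0.195 over all alternatives, limma). It also did not pass with no filter, with centred arrays, with sex as a block or with male arrays alone. Pik3cd did not pass without replicate 1 or 3 of GFP- Tfh, 2 or 3 of CXCR5+PD1- or 3 of CXCR5-PD1- (adjusted p 0.0507 to 0.0650, limma). Nor did Pik3cd pass with male arrays alone. Between GFP+ and GFP- Tfh, and between the PD1- gates, 0 genes of any of these lists passed.

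**Figure D4:**
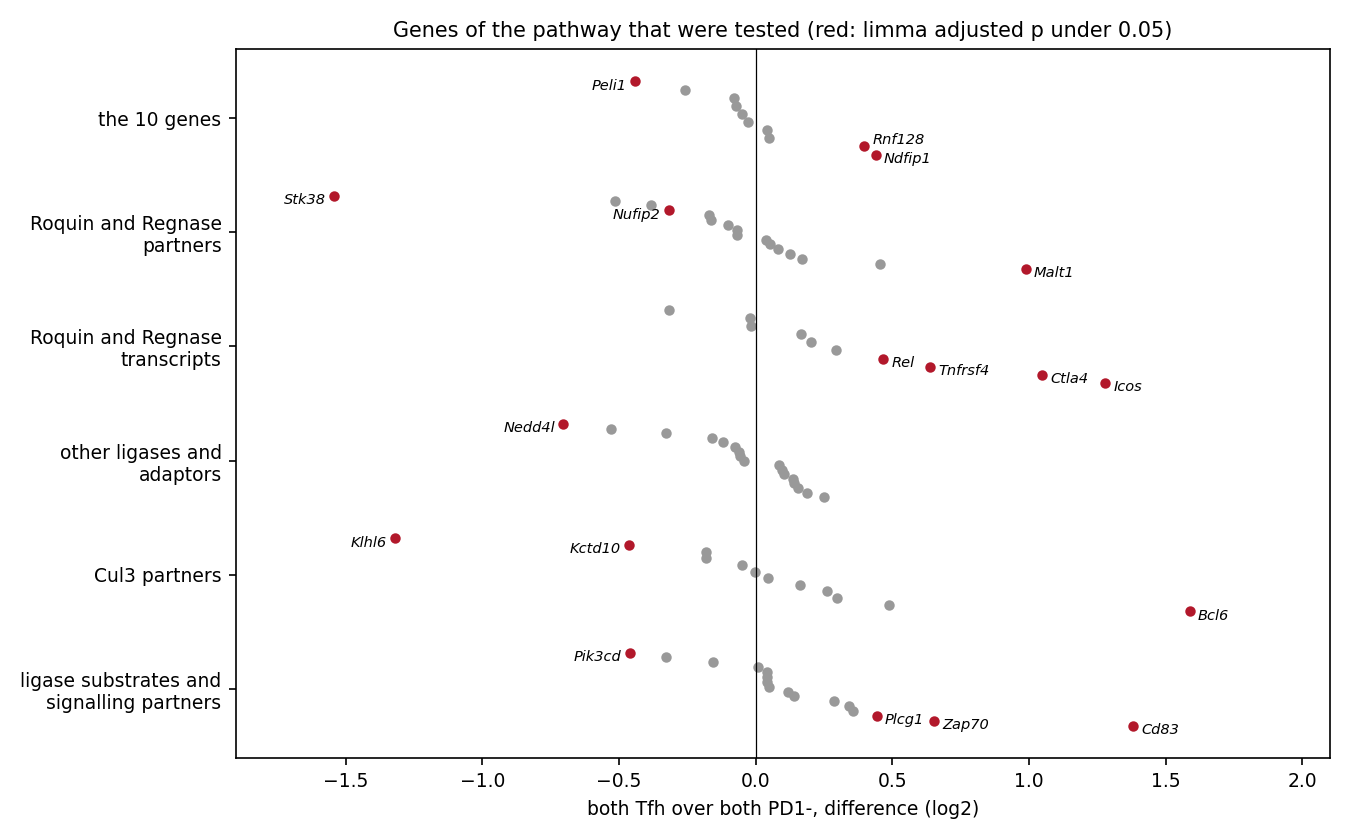
Differences (log2, horizontal axis) of both Tfh over both PD1- gates for the 10 genes and for the tested genes of 5 pathway lists, 1 point per gene, red and named where the limma adjusted p is under 0.05. The 10 genes lie between -0.44 and 0.44, while list genes reach -1.54 (Stk38) and 1.59 (Bcl6).

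Genes with the pattern most like that of the called genes were sought by Pearson correlation over the 12 arrays among the 11240 genes tested, as a description. For Peli1 they were Il17ra (r = 0.980), Zpr1 (0.976) and Siah1a (0.969), for Ndfip1 Slc41a1 (0.958), Rsbn1 (0.950) and Eml4 (0.947), and for Rnf128 Plxna3 (0.945), Rbpj (0.933) and Gpm6b (0.920). These arrays fall into sorted groups, and any genes that follow the sorts reach a high r.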

How the data were processed

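The table the authors deposited holds log2 values of 34760 probe sets; the submitters' processing notes name RMA and oligo. RMA subtracts background, equalises the arrays' distributions and summarises probes, so low signals such as that of Rnf128 are compressed and a shift of most genes is removed. The genome build was not given in the sources used here. Gene names come from the platform annotation, updated through RefSeq symbols; 21640 probe sets had 1 gene symbol. A gene was tested if above the array median (6.34 to 6.45) on at least 3 arrays. Log2 values of all 12 arrays were fitted in 1 model (limma 3.58.1, R 4.3.3; lmFit and eBayes, two-sided, 8 residual degrees of freedom), with 5 contrasts, Benjamini-Hochberg adjustment over 11240 genes and a threshold of 0.05. The code was tested on simulated data in which each gene had the same spread in all groups. That test does not cover the wider scatter of the GFP+ Tfh arrays.

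The 10 genes, the pathway and marker lists and the tests were chosen with earlier results of these data known. All 10 genes are named, and of each list the 4 genes with the smallest p in both Tfh over both PD1-; the 3 genes most like each called gene are given by correlation. Deviations of arrays with the same replicate number correlated above 0.1 in all pairs only between the PD1- gates (0.21 to 0.35), where the replicate block left 0 calls; what the numbers mark is not in the labels. Alternatives changed the filter, normalisation, weights, arrays fitted, block and choice of probe set, and dropped each array in turn. No array pair correlated above 0.975. Precision is limited by the number of arrays and, for Cblb, also by the lack of a replicate term in the main fit.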

Additional observations from a re-analysis of the deposited data

How the results depend on the processing

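Of the member calls, Ndfip1 and Peli1 in both Tfh over both PD1- were kept in 20 of 21 alternatives, and no called difference changed sign. With male arrays alone 0 of the 3 calls remained there; leaving out 1 array left 2 to 3. In GFP+ over GFP- Tfh the 5 genes became 3 with a weight for each group (1 weight per group), 0 when just these groups were fitted (471 at an unadjusted p under 0.05, limma), 0 with male arrays (616) and 3 to 237 without 1 array (237 without replicate 1 of GFP+ Tfh, 3 without replicate 1 of GFP- Tfh). In GFP- Tfh over CXCR5-PD1- the 429 genes became 791, 665 and 266 with weights, groups alone and male arrays, and 228 to 326 without 1 array; the 2 members called became 1 with the stricter filter, loess, centring or sex as a block and 0 with the replicate block, male arrays or without any 1 array. The stricter filter, at the 70th percentile, left out Rnf128 and Zc3h12a. In GFP+ Tfh over CXCR5-PD1- the 697 genes became 314, 255 and 392 with weights, groups alone and male arrays, and 348 to 1147 without 1 array (1147 without replicate 1 of GFP+ Tfh, 348 without replicate 3 of CXCR5-PD1-); the 2 members became 1 with centring, the replicate block or sex as a block, 0 with weights, groups alone or male arrays and 0 to 2 without 1 array. With the replicate block the genes called were 1247 in both Tfh over both PD1- (3 members), 6 in GFP+ over GFP- Tfh (0 members), 544 in GFP- Tfh over CXCR5-PD1- (0), 814 in GFP+ Tfh over CXCR5-PD1- (1) and 0 between the PD1- gates (0). The adjusted p of the members not called with it were 0.0503 for Rnf128 and 0.0665 for Ndfip1 in GFP- Tfh, and 0.0701 for Ndfip1 in GFP+ Tfh, over CXCR5-PD1-; in both Tfh over both PD1- those of Arid5a and Nufip2 were 0.00593 and 0.0532 (limma). In GFP+ over GFP- Tfh the SE of the Cblb difference was 0.29, and 0.17 with the replicate block. Differences that changed sign passed the test neither before nor after, and the cause was not tested. With male arrays alone the turned values were Rc3h2 0.12, Cblb 0.041, Cbl -0.022 and Itch 0.20 in both Tfh over both PD1-, Itch 0.051 and Cul3 0.042 in GFP+ Tfh over GFP- Tfh, Cbl -0.051 and Itch 0.28 in GFP+ Tfh over CXCR5-PD1-, Cbl -0.0042 and Rnf128 -0.013 in CXCR5+PD1- over CXCR5-PD1-. With the mean of the probe sets the turned values were Rc3h1 0.019 in GFP+ Tfh over GFP- Tfh. After cyclic loess the turned values were Cbl 0.057, Ndfip1 0.035 and Cul3 0.063 in GFP+ Tfh over GFP- Tfh, Peli1 0.020 in CXCR5+PD1- over CXCR5-PD1-. With arrays centred on the median the turned values were Cbl 0.0034 and Cul3 0.0023 in GFP+ Tfh over GFP- Tfh, Ndfip1 -0.0017 and Cul3 -0.023 in CXCR5+PD1- over CXCR5-PD1-. In both Tfh over both PD1-, leaving out 1 array gave Rc3h2 -0.15 to 0.089, Cblb -0.22 to 0.054, Cbl -0.0063 to 0.11, Itch -0.17 to 0.16 and Cul3 -0.0035 to 0.070. In GFP+ Tfh over GFP- Tfh, leaving out 1 array gave Cbl -0.11 to 0.10, Itch -0.56 to 0.11, Ndfip1 -0.12 to 0.060 and Cul3 -0.098 to 0.049. In GFP- Tfh over CXCR5-PD1-, leaving out 1 array gave Rc3h2 -0.0052 to 0.21, Zc3h12a -0.033 to 0.055, Cblb -0.19 to 0.18, Cbl -0.041 to 0.18 and Cul3 -0.0064 to 0.098. In GFP+ Tfh over CXCR5-PD1-, leaving out 1 array gave Cbl -0.0064 to 0.17, Itch -0.42 to 0.24 and Cul3 -0.050 to 0.098. In CXCR5+PD1- over CXCR5-PD1-, leaving out 1 array gave Rc3h1 -0.22 to 0.051, Cblb -0.31 to 0.23, Cbl -0.034 to 0.15, Ndfip1 -0.0053 to 0.069, Peli1 -0.084 to 0.059 and Cul3 -0.049 to 0.056.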
